A study of Mus musculus with 6 samples.

Results

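The genes described here encode proteins of the spliceosome and the 2 large families of splicing regulators, the SR proteins and the hnRNP proteins. They were taken by symbol, as the genes whose name begins with Srsf, Hnrnp, Hnrp, Sf3a, Sf3b, Snrp or Snrnp. The rule found 58 of the 17132 genes in the table, with 283 of its 73540 polyA site (pA) entries. By role they were 3 U1 proteins (Snrpa, Snrpc and Snrnp70), 8 Sm core proteins, 10 U2 proteins, 3 proteins of the U4/U6 and U5 particles, 3 of the U12-type spliceosome, 11 SR proteins and 20 hnRNP proteins.

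The spliceosome is built from small nuclear ribonucleoprotein particles (snRNPs), each a small RNA with a ring of Sm proteins and particle-specific proteins. U1 snRNP pairs with the 5' splice site and U2 snRNP with the branch point, after which the U4/U6 and U5 particles join and the catalytic steps follow. SR proteins mostly bind exons and promote use of nearby splice sites, while hnRNP proteins coat nascent transcripts and often repress splice sites. Apart from splicing, U1 snRNP is known to keep pAs in introns and near promoters from being used, which is why its proteins are set apart here. Transcripts of testis are known for extensive alternative splicing and for short 3'UTRs.

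The data were pA read counts made by 3'READS, which sequences the 3' ends of poly(A)+ RNA, from testes of FVB mice at 1, 2, 3, 4, 5 and 6 weeks (w) after birth. There was 1 library per week, and the labels name no treatment and no mutation. Following the study, the 3 libraries of 1-3 week testes were set against the 3 of 4-6 week testes, a split which the study read from isoform usage in these same libraries. The labels do not say whether a library came from 1 mouse or from several, and the spread within a group holds differences of age as well as error. An exact permutation test of 3 against 3 cannot go below p = 0.1, so each comparison was fitted across all genes with the quasi-likelihood test of edgeR, and adjusted p is after Benjamini-Hochberg. Bulk tissue cannot tell fewer cells of a type from less RNA per cell.

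The deposited pA counts summed to 3512699 to 5450015 reads per library, fewer than the pA-supporting reads that the study lists for each library. The spermatid transcripts Tnp1 and Prm1 alone held 738205 and 520357 last-exon reads at 6w, and 274743 and 149245 at 4w. Levels are given as scaled RPM, the RPM of 3'-most exon reads computed on library totals scaled by the trimmed mean of M values (TMM). On that scale the median of the 11269 genes tested changed by -0.07 (log2, 4-6 week against 1-3 week), and with plain library totals by -1.32, so each change below is relative to the other genes. How much of the gap between the scales came from a few abundant transcripts was not tested. A gene with no read could have a level of up to 0.507 scaled RPM at 1w and 1.12 at 6w (the limit of 3 reads). Intervals and limits cover counting error only, as the reads carry no molecular identifiers.

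The labelled tissue was checked against markers of its cell types, as summed scaled RPM. Of 6 spermatid markers tested all 6 rose, with sums of 50.8 to 536 at 1-3 weeks and 140299 to 487853 at 4-6 weeks. At 1w, 2w and 3w Tnp1 had 1174, 162 and 1890 last-exon reads and Prm1 796, 108 and 431. The timeline of the study has no spermatids yet at 1w, and the source of those 1w reads was not tested. Of 9 Sertoli cell markers 8 fell, with sums of 2015 to 3791 at 1-3 weeks and 839 to 1160 at 4-6 weeks. Spermatogonial markers (2 of 4 fell) summed to 567 to 1514 at 1-3 weeks and 314 to 426 at 4-6 weeks, and Gfra1 among them had no last-exon read at 1-3 weeks. Markers of meiotic prophase (1 of 5 rose) summed to 895 to 10812 at 1-3 weeks and 7677 to 11304 at 4-6 weeks. For pachytene and late spermatocytes (0 of 5 past the threshold by edgeR, 0 at an unadjusted p under 0.05, 1 higher by DESeq2) the sums were 6.42 to 1609 at 1-3 weeks and 3292 to 5267 at 4-6 weeks. Leydig cell markers (1 of 5 rose) summed to 350 to 372 at 1-3 weeks and 580 to 736 at 4-6 weeks. The cell makeup thus moved with the comparison, and its part in the results below was not tested.

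Members summed over all roles stood at 9365, 8140, 8119, 7499, 7275 and 7090 scaled RPM at 1w to 6w. As a share of all last-exon reads, on plain totals, they went from 1.49% at 1w to 0.373% at 6w. Of the 58 members, 55 had last-exon pAs of their own, and 51 passed the filter on low counts. Between 4-6 week and 1-3 week samples 2 of 51 rose, against a background of 17.7% of 11269 genes, and 12 fell (23.5%), against a background of 22.5%. The share that fell was near the background, and the share that rose was below it. The other 37 did not pass the test, and the median log2 change was -0.29 for members and -0.07 for all genes. Without a test, all 3 older libraries lay below all 3 younger ones for 19 of 51 members (background 33.9%) and above them for 10 (background 33.1%).

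**Figure D1:**
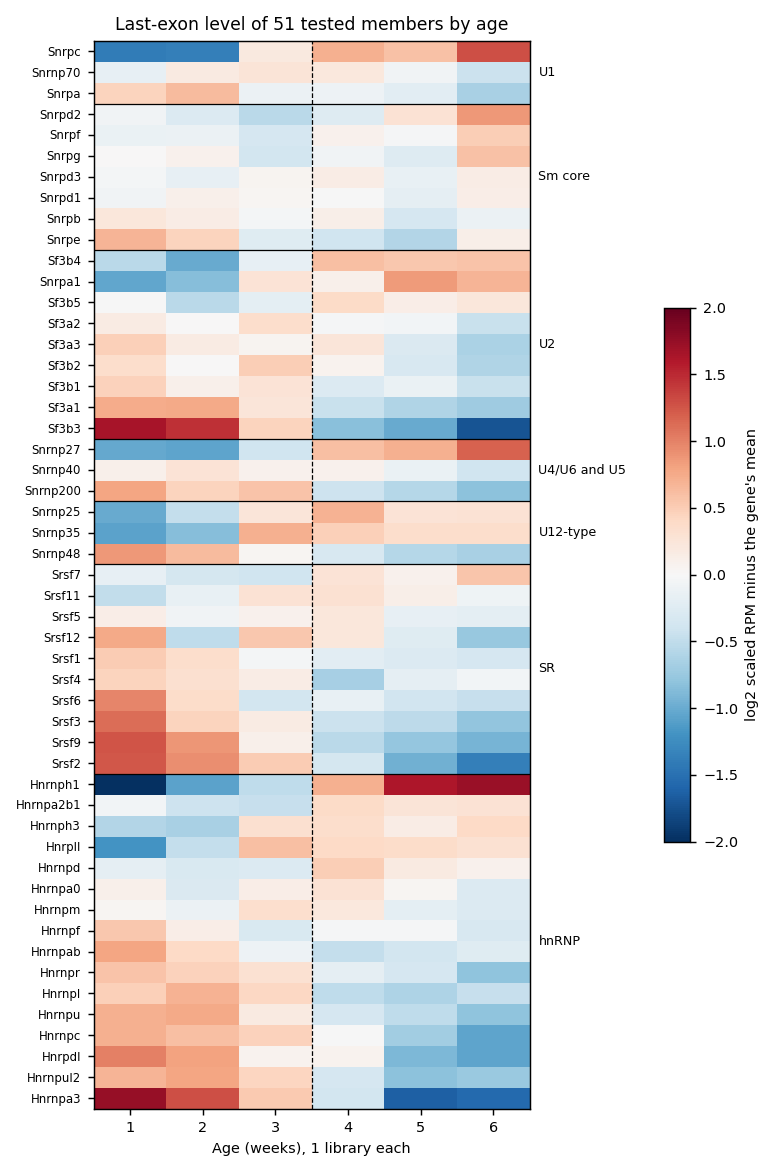
Level of 51 members at 1 to 6 weeks (columns, 1 library each), as log2 scaled RPM minus the mean of the gene over the 6 libraries (color, which saturates at -2 and 2), ordered by role and then by change. The SR and hnRNP blocks have more members that are high at 1w and low at 6w than the Sm core block, whose 7 members have log2 changes from -0.60 to 0.65.

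These counts were sensitive to single libraries. Leaving out the 1w, 2w, 3w, 4w, 5w or 6w library gave 4, 0, 19, 2, 0 and 0 members lower, and 1, 0, 11, 1, 0 and 0 higher. The background moved with them, with 11.2%, 1.87%, 33.7%, 4.27%, 0% and 0.0982% of all genes lower and 12%, 6.3%, 35.8%, 9.1%, 2.76% and 3.68% higher. At an unadjusted p under 0.05, the fits with 0 calls still had 12, 8 and 8 members lower (without 2w, 5w and 6w) and 2, 4 and 4 higher. DESeq2 called 9 members higher (17.6%, background 29.4%) and 14 lower (27.5%, background 26.8%). A trend over weeks called 5 higher (9.8%, background 28.9%) and 18 lower (35.3%, background 31.2%). With library totals 0 were higher (1 at an unadjusted p under 0.05, background 9.75%) and 34 lower (66.7%, background 53.6%).

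The 3 U1 protein genes had low levels, and none passed the test on the scaled totals. Each had a single last-exon pA, so each had 1 3'UTR size throughout: 199 nt for Snrpa, 200 nt for Snrpc and 143 nt for Snrnp70. Bases 40 to 11 upstream of each pA (mm9, strand of the gene), with the polyadenylation signal (PAS) in capitals, show an AATAAA or ATTAAA hexamer in all 3, at chr7:27972036-27972065, minus strand for Snrpa, chr17:27988867-27988896, plus strand for Snrpc and chr7:52631835-52631864, minus strand for Snrnp70.
Snrpa: tagattgtgATTAAAgtgagtttttgaggt
Snrpc: ttatattgtgaaatgtgaaAATAAAgtcat
Snrnp70: cttggatttaaaAATAAAattaattttctg

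Snrpc, the U1 protein that steadies pairing with the 5' splice site, stood at 10.5, 10.7, 31.7, 45.2, 41.4 and 67.8 scaled RPM at 1w to 6w. All 3 older libraries were above the younger ones, yet the test was just missed (log2 change 1.55, SE 0.52, adjusted p = 0.0536). By DESeq2 the adjusted p of Snrpc was 0.00244, and with library totals its log2 change was 0.33 (adjusted p = 0.554). Snrpa, which binds a stem-loop of U1 RNA, was measured at 13.5, 15.5, 9.18, 9.3, 8.57 and 6.34 scaled RPM, from 80, 87, 42, 29, 24 and 17 reads. The groups of Snrpa overlapped by a small margin between 3w and 4w (log2 change -0.66, SE 0.32, adjusted p = 0.137). Snrpa passed the test as lower with library totals (log2 change -1.90, adjusted p = 0.0115) and in the trend over weeks (adjusted p = 0.0329). Snrnp70, the U1 protein contacted by SR proteins, had 22.3, 28.3, 30, 28.8, 23.9 and 18.6 scaled RPM, with its highest value at 3w. Its groups overlapped (log2 change -0.17, SE 0.28, adjusted p = 0.624), and with library totals it passed as lower (log2 change -1.37, adjusted p = 0.025). With library totals 53.6% of all genes were lower and the median log2 change was -1.32, near that of Snrnp70. Summed, the U1 proteins were at 46.3, 54.4, 70.8, 83.3, 73.9 and 92.8 scaled RPM, with Snrpc higher and Snrpa and Snrnp70 lower at 6w than at 1w.

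**Figure D2:**
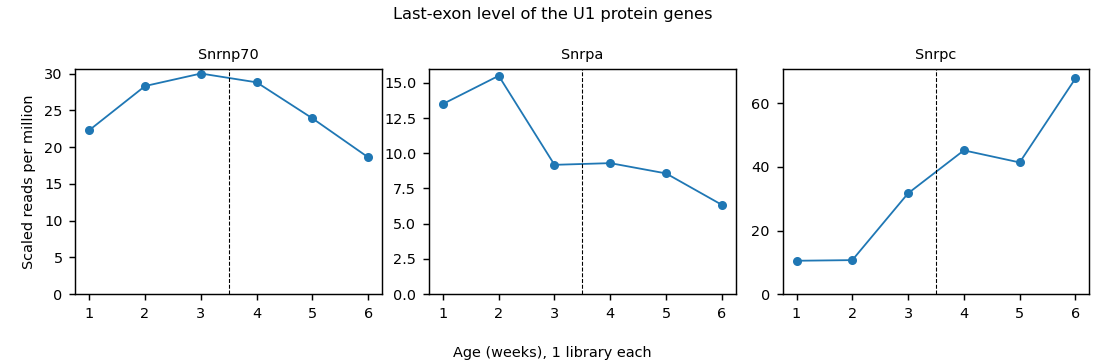
Scaled RPM (y axis, from 0) of Snrnp70, Snrpa and Snrpc against age in weeks (x axis), 1 point per library, with a dashed line between the age groups. Snrpc goes from 10.5 at 1w to 67.8 at 6w, while Snrpa goes from 13.5 to 6.34.

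The Sm core proteins, which form the ring shared by the spliceosomal snRNPs, had small changes. Of 8 genes 7 were tested and none passed, with a median log2 change of 0.10. Snrpf had the most reads of the class and stood at 213, 215, 185, 248, 230 and 327 scaled RPM. Its older libraries were above the younger ones, without passing the test (log2 change 0.39, SE 0.31, adjusted p = 0.321), and its log2 change with library totals was -0.90. The class summed to 528, 514, 453, 533, 491 and 681 scaled RPM.

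Among U2 proteins 2 of 9 tested members fell (22.2%, background 22.5%) and none rose (background 17.7%). Sf3b3, a scaffold subunit of the SF3B complex that holds the branch point, had the largest decrease of the 51 members tested on pAs of their own. It stood at 396, 349, 173, 71.2, 63.2 and 38.4 scaled RPM, every older library being below every younger one (log2 change -2.41, SE 0.46, adjusted p = 0.0167). Sf3a1, a subunit of the SF3A complex, stood at 120, 122, 85.5, 52.9, 47.5 and 44 and fell (log2 change -1.18, SE 0.28, adjusted p = 0.0235). Snrpa1, the A' protein of U2, had the most reads of the class and 435, 497, 1075, 955, 1614 and 1425 scaled RPM. Its 3w library was above its 4w library, so the groups overlapped (log2 change 0.99, SE 0.53, adjusted p = 0.158), and its log2 change with library totals was -0.25. Because of Snrpa1 and Sf3b4, another SF3B subunit named here after its values were seen (396, 287, 512, 879, 836 and 857 scaled RPM, log2 change 1.11, SE 0.39, adjusted p = 0.0589), the class sum went from 1959 at 1w to 2716 at 6w.

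The 3 genes of the U4/U6 and U5 particles differed in their calls. Snrnp27, a protein of the U4/U6.U5 tri-snRNP, rose, at 168, 165, 258, 518, 556 and 770 scaled RPM, with no overlap of the groups (log2 change 1.64, SE 0.39, adjusted p = 0.0233). With library totals its log2 change was 0.38 (adjusted p = 0.424), so the rise is relative to other genes. Snrnp200, the U5 helicase that unwinds U4 from U6, fell (212, 167, 182, 92, 82.5 and 69.3 scaled RPM, log2 change -1.20, SE 0.29, adjusted p = 0.0239). Snrnp40, another U5 protein, did not pass the test (log2 change -0.29, SE 0.27, adjusted p = 0.393). In the U12-type spliceosome, which removes a small class of introns, Snrnp48 fell (30.8, 26.1, 17.3, 13.5, 11.4 and 10.8 scaled RPM, log2 change -1.05, SE 0.31, adjusted p = 0.0377). Snrnp25 and Snrnp35 of the same particle had log2 changes of 0.76 and 0.57 and did not pass.

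SR protein genes summed to 4381, 3487, 2781, 2107, 1591 and 1412 scaled RPM at 1w to 6w, lower at each later week. Of 10 tested members 3 fell (30%, background 22.5%) and none rose (background 17.7%). Srsf2, an SR protein that also acts in transcription elongation, made up 60.3% of that sum at 1w and 30.7% at 6w, with 2644, 2127, 1590, 874, 574 and 434 scaled RPM. Its groups did not overlap (log2 change -1.76, SE 0.50, adjusted p = 0.034). Srsf9 stood at 238, 183, 107, 68.9, 58.6 and 52.2 scaled RPM and fell (log2 change -1.55, SE 0.38, adjusted p = 0.0249). Srsf3, a small SR protein, stood at 110, 68.8, 56.6, 37.5, 35.3 and 29.4 and fell (log2 change -1.20, SE 0.34, adjusted p = 0.0338). Srsf7 was the one tested SR gene with all older libraries higher, at 39.6, 34.5, 33.5, 53.2, 46.8 and 64.9 scaled RPM, and did not pass the test (log2 change 0.62, SE 0.26, adjusted p = 0.0953). On plain totals all older libraries of Srsf7 were instead below the younger ones (log2 change -0.66, edgeR adjusted p = 0.145).

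Among the hnRNP genes 1 of 16 tested rose (6.25%, background 17.7%) and 5 fell (31.2%, background 22.5%). Hnrnph1, which binds G-runs near splice sites, rose the most of the 51, from very few reads: 4, 10, 12, 19, 32 and 33 at 1w to 6w (log2 change 2.55, SE 0.55, adjusted p = 0.02). Its groups did not overlap on plain totals either, where the test was missed (log2 change 1.27, adjusted p = 0.0585). Hnrnpa3, a relative of the splicing repressor hnRNP A1, stood at 33, 24.3, 14.2, 7.69, 3.21 and 3.36 scaled RPM and fell (log2 change -2.31, SE 0.50, adjusted p = 0.02). Hnrnpul2, a relative of the nuclear matrix protein hnRNP U, stood at 74, 79.2, 61.7, 36.5, 26.1 and 27.6 and fell (log2 change -1.25, SE 0.28, adjusted p = 0.0208). Hnrnpc, which packages nascent RNA by binding U tracts, stood at 25.4, 23.5, 21.4, 15.4, 9.64 and 7.46 and fell (log2 change -1.11, SE 0.34, adjusted p = 0.0408). Hnrnpl, which binds CA repeats, stood at 61.9, 72.3, 59, 31.1, 28.9 and 32.4 and fell (log2 change -1.06, SE 0.25, adjusted p = 0.0224). Hnrnpr was the fifth that fell (log2 change -0.87). Hnrnpu had the most reads of the class and 767, 792, 533, 374, 330 and 269 scaled RPM, and just missed the threshold although its groups did not overlap (log2 change -1.10, SE 0.37, adjusted p = 0.0533).

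**Figure D3:**
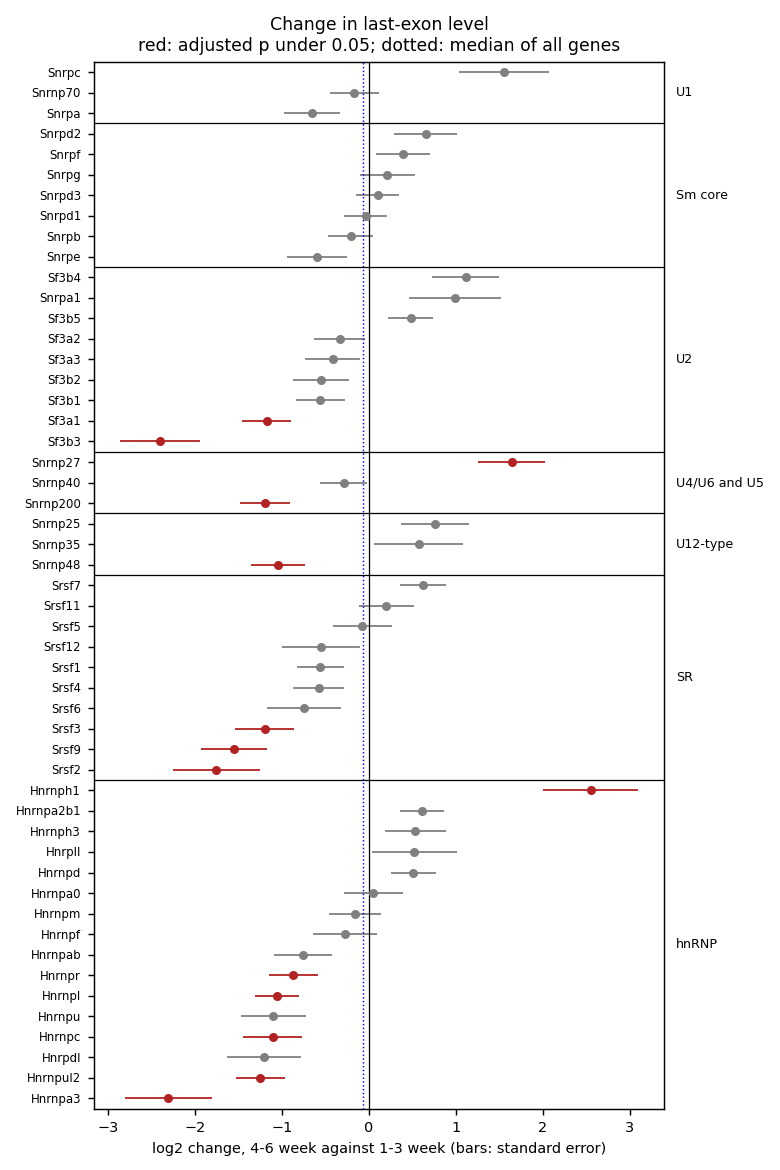
Log2 change of the level (x axis, 4-6 week against 1-3 week, bars are the standard error) for 51 members grouped by role (y axis). The 14 red points passed the test, 12 to the left of 0 and 2, Hnrnph1 and Snrnp27, to the right; the dotted line is the median of all genes at -0.07.

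A handful of members could not be tested. Hnrnph2 had 2 last-exon reads in all, Hnrnpk 34, Snrpb2 49 and Srsf10 73, which is below the filter in each case. Hnrnpul1 had no last-exon pA in the table, and every last-exon pA of Hnrnpa1 and Snrpn was also assigned to another gene. Of 41 spliceosome genes tested outside the symbol rule 1 rose (2.44%, background 17.7%) and 10 fell (24.4%, background 22.5%), with a median log2 change of -0.42. Prpf4, a U4/U6 protein, rose (log2 change 2.15, SE 0.37, adjusted p = 0.0131), and the largest decreases were in Prpf19, a ubiquitin ligase of the spliceosome (log2 change -2.17, SE 0.49, adjusted p = 0.0211), and Luc7l, a relative of a yeast U1 protein (log2 change -2.15, SE 0.42, adjusted p = 0.0171). Of 38 other splicing regulators 12 fell (31.6%, background 22.5%) and 0 rose by edgeR (background 17.7%), with 4 higher at an unadjusted p under 0.05 and 5 by DESeq2. The largest decreases there were in Nono, a paraspeckle protein (log2 change -2.60, SE 0.67, adjusted p = 0.0272), and Mbnl3, a muscleblind protein (log2 change -2.11, SE 0.46, adjusted p = 0.02).

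The next comparison asked which 3'UTR isoforms the members used, as the ratio of the distal (Dis-pA) to the proximal (Prx-pA) of the 2 last-exon pAs with most reads. At least 20 reads of both in every library were needed, which left 31 members. In 10 of 31 (32.3%) the ratio fell, against a background of 34.5% of 4271 genes, and in 0 it rose, against a background of 1.29%. At an unadjusted p under 0.05 the ratio was higher in 0 members, and DESeq2 also called 0. The median log2 change of the ratio was -1.01 for members and -1.12 for all genes. The members' share was near the background. Leaving out the 2w, 5w or 6w library left 5, 5 and 6 members lower (background 25.4%, 24.1% and 24.7%).

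Hnrnpa2b1, a relative of hnRNP A1, had the largest shift, and its Prx-pA and Dis-pA lie 822 nt apart. They are among 12 last-exon pAs of Hnrnpa2b1, which together held 191 reads at 1w and 110 at 6w, so the shares below leave out part of its reads. The Dis-pA took 91.7%, 80%, 32.7%, 10.1%, 9.72% and 14.1% of the reads of both pAs at 1w to 6w, with 66, 36, 16, 9, 7 and 10 Dis-pA and 6, 9, 33, 80, 65 and 61 Prx-pA reads (log2 change -4.32, SE 0.99, adjusted p = 0.0071). Most of the switch lay between 2w and 4w, and the mean 3'UTR size weighted by reads went from 1658 nt to 1432 nt. The bases 40 to 11 upstream of both pAs hold the canonical AATAAA, here in capitals, at chr6:51411950-51411979, minus strand for the proximal and chr6:51411128-51411157, minus strand for the distal site (mm9). For Sf3b1 and Snrnp27 the proximal site carries the variant AATACA and the distal one AATAAA, at chr1:55044155-55044184, minus strand and chr1:55043878-55043907, minus strand for Sf3b1 and at chr6:86625441-86625470, minus strand and chr6:86625220-86625249, minus strand for Snrnp27. They are shown to set the signals of paired sites side by side.
Hnrnpa2b1 proximal: aagccaagtgatcattAATAAAgcttttct
Hnrnpa2b1 distal: aatacaagttttataaAATAAAtacttttg
Sf3b1 proximal: cttgtaactttgtgtctAATACAgctgttt
Sf3b1 distal: atgtttaattgagaAATAAAcattcgtgta
Snrnp27 proximal: gagtattttatattttatatttAATACAca
Snrnp27 distal: gcatacatttccccAATAAAacaatgtttc

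Hnrnpu had Dis-pA shares of 97%, 97.1%, 86.7%, 77.5%, 64.7% and 67.3% (log2 change -3.06, SE 0.65, adjusted p = 0.00472), its Prx-pA lying 39 nt after the stop codon and its Dis-pA 318 nt. Sf3b1, the SF3B subunit that clamps the branch point, had Dis-pA shares of 93.4%, 90.5%, 87.3%, 76.4%, 71% and 70.2% (log2 change -1.87, SE 0.42, adjusted p = 0.00596). In Snrnp27, whose level rose, the shares were 86.1%, 86.1%, 72.6%, 59.4%, 57.6% and 45.5% (log2 change -1.97, SE 0.47, adjusted p = 0.00812), and the Dis-pA level went from 140 scaled RPM at 1w to 324 at 6w and the Prx-pA level from 22.7 to 389. Hnrnpd, which binds AU-rich elements, had Dis-pA shares of 33.9%, 47.3%, 26.3%, 16.7%, 8.74% and 11.7% (log2 change -1.97, SE 0.50, adjusted p = 0.0121). Snrpd2, an Sm protein, had 26.2%, 28.6%, 15.1%, 12.9%, 4.05% and 3.25% (log2 change -2.25, SE 0.63, adjusted p = 0.018). All these shares were lower in every older library than in every younger one.

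Hnrnpab had Dis-pA shares of 84.5%, 82.1%, 77.9%, 65.8%, 60% and 47.4% (log2 change -1.69, SE 0.43, adjusted p = 0.0112). Srsf1, the founding SR protein, had 64.7%, 54.9%, 50%, 31.5%, 25% and 42% (log2 change -1.45, SE 0.47, adjusted p = 0.0362). Its Prx-pA gives a 3'UTR of 1887 nt and its Dis-pA one of 4151 nt, and they are among 8 last-exon pAs of Srsf1. A pA of Srsf1 at 79 nt went from 5 reads at 1w to 42 at 6w, where the Prx-pA had 29 and the Dis-pA 21. In Srsf2 the shift was small in absolute terms, 99.1%, 98.7%, 98.3%, 97.8%, 95.5% and 93.1% (log2 change -1.74, SE 0.49, adjusted p = 0.0185). Snrnp40 passed on 1 to 4 Prx-pA reads a library, its shares being 99.8%, 99.7%, 99.8%, 99.3%, 98.2% and 98.8% (log2 change -2.17, SE 0.73, adjusted p = 0.041). The Snrnp40 call was lost by DESeq2 (adjusted p = 0.1), with at least 5 reads as the minimum (0.0506), and without 1w, 2w, 3w, 5w or 6w (up to 0.214). Of the 6 fits with 1 library left out, 2 kept the call for Srsf1, 2 for Srsf2, 3 for Snrpd2, 4 for Hnrnpd and 5 for Hnrnpab. All 6 kept it for Hnrnpa2b1, Hnrnpu, Sf3b1 and Snrnp27. Srsf1 also missed the threshold in the trend over weeks (edgeR adjusted p = 0.0529). When the first and last pA with at least 5% of a gene's reads were compared instead, 9 of 18 members had a lower (50%, background 50.3%) and 1 a higher ratio (5.56%, background 1.36%), the latter being Sf3a1, named after its values were seen.

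**Figure D4:**
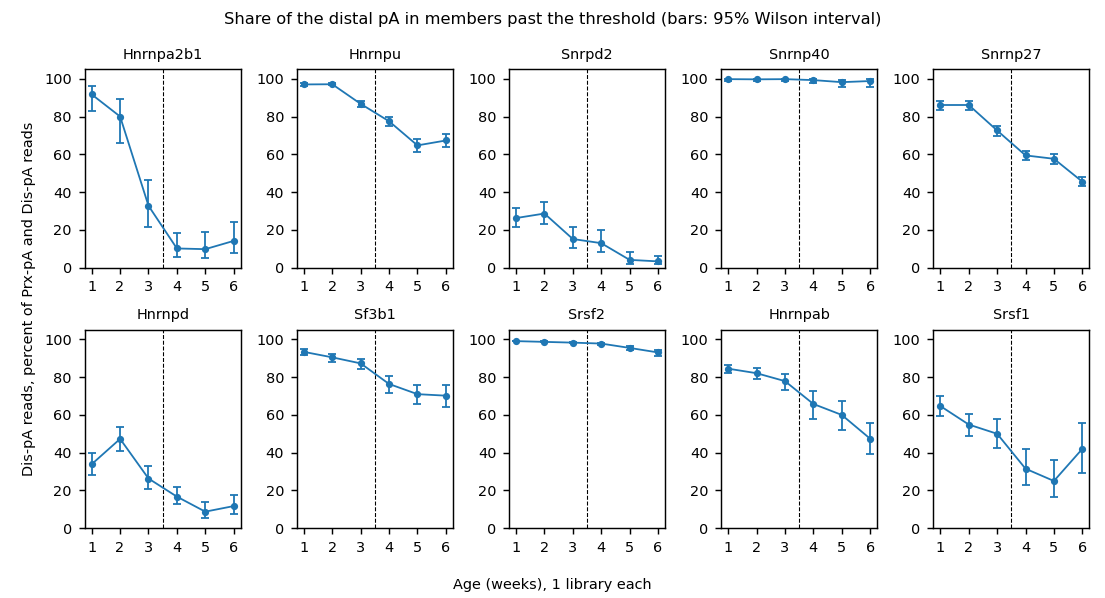
Dis-pA reads as percent of Prx-pA and Dis-pA reads (y axis, from 0) against age in weeks for the 10 members that passed the test, with 95% Wilson intervals as bars. Hnrnpa2b1 goes from 91.7% to 14.1%, while Snrnp40 and Srsf2 stay at or above 93.1%.

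Over all last-exon pAs, 39 members had at least 50 reads in every library, and their median 3'UTR size was 361 nt at 1w and 304 nt at 6w. Of the 28 with more than 1 pA, 23 were shorter at 6w than at 1w and 4 longer. Sizes were computed for members only, so neither the medians nor these counts have a background of all genes. The study describes such shortening as a general trend across genes. Whether the members differ from other genes in their change of size was not tested. Srsf7 went from 500 to 236 nt and Srsf1 from 2757 to 1406 nt, whereas Sf3a1 went from 618 to 935 nt (all 3 named after their values were seen). In the 40 nt upstream of the pA, on the strand of the gene, AATAAA was found at 50.5% of 184 member last-exon pAs and at 38.9% of 45809 in all. ATTAAA, counted where AATAAA was missing, stood at 15.2% and 14.2%. A further 10 variants with 1 base of AATAAA changed (any other base at position 1 or 5, G or C at position 2, G at position 3 or 4), counted after those, were at 17.4% and 22.7%, and none of them at 16.8% and 24.2%.

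CDS-pAs, which lie in introns or upstream exons and can truncate the coding sequence, were few in the members. Of 41 members with at least 500 last-exon reads 7 had any (17.1%), against 40.8% of 5764 such genes. CDS-pAs took 0.169% of the members' sense reads at 1w and 0.424% at 6w, and 2.72% and 3.35% over all genes. The U1 proteins had none. The ratio of CDS-pA to last-exon reads could be tested in 8 members: 1 was higher at 4-6 weeks (background 20.7% of 2437 genes) and 0 lower (background 4.23%, 0 at an unadjusted p under 0.05 and 0 by DESeq2). The median log2 change was 0.64 in members and 0.77 in all genes.

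Since few passed, the 4 members with the smallest p are given. Hnrnpc was the one past the threshold, on 7 CDS-pA reads (0, 0, 1, 1, 1 and 4 at 1w to 6w, log2 change 4.31, SE 1.42, adjusted p = 0.0391), and 4 of them were in the 6w library. It was not called without 1w, 2w, 5w or 6w, with an adjusted p of 0.254 without 6w. Hnrnph3, which like Hnrnph1 belongs to the hnRNP H family, had CDS-pA shares of 0.889%, 1.46%, 5.26%, 7.02%, 11.6% and 11.2% (log2 change 2.15, SE 0.76, adjusted p = 0.052). Hnrnpd had 4.35%, 1.46%, 2.62%, 5.49%, 9.18% and 10.2% (log2 change 1.64, SE 0.69, adjusted p = 0.0966), and Hnrnpl had 6.63%, 4.24%, 5.59%, 3%, 2.41% and 1.14% (log2 change -1.27, SE 0.72, adjusted p = 0.215), the one of the 4 with lower shares in older libraries. Counted as single pAs against the other sense reads of the gene, 6 member pAs were tested. The 1 past the threshold (background 21.8% of 3161 pAs) was that of Hnrnph3, in intron 4 of 9 and 238 nt after the 5' splice site (log2 change 2.14, SE 0.75, adjusted p = 0.0442). None was lower (background 6.93%, 0 at an unadjusted p under 0.05; DESeq2 was not run on single pAs). The Hnrnph3 pA was not called against last-exon reads (adjusted p = 0.0511), nor when 1w, 2w, 4w, 5w or 6w was left out (0.0626 to 0.157). The highest shares of a single intronic pA were 100% and rested on very few reads, as in Hnrnph2 (5 of 5 sense reads at 1w, 95% Wilson interval 56.6 to 100%, in intron 1 of 2) and Hnrnpul1 (4 of 4 at 4w, 51 to 100%, in intron 7 of 14). Hnrnpul1 had no last-exon pA in the table, so its share is among intronic pAs only. Srsf10, named after its values were seen, had CDS-pA shares of 47.4%, 40.5%, 43.8%, 57.1%, 84.6% and 50%, from 27, 15, 7, 8, 11 and 4 CDS-pA reads over 10 pAs that the table calls intronic, 6 of them in introns of the GENCODE gene model.

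Bases 40 to 11 upstream of the intronic pAs of Hnrnph3 (chr10:62480562-62480591, minus strand), Hnrnpd (chr5:100391072-100391101, minus strand, in the last intron) and Hnrnpl (chr7:29596672-29596701, plus strand, in intron 2 of 13) are printed with the PAS in capitals. Of 37 member intronic pAs 45.9% had AATAAA, against 43.5% of 17031.
Hnrnph3 intronic: taaaAATAAAgatgattggcatgttttctt
Hnrnpd intronic: acatcctgtatcagcattataaAATAAAgt
Hnrnpl intronic: attataaaattataatgcccagATTAAAct

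Upstream antisense RNAs (uaRNAs) start at the same promoters and run the other way, and they were tested as a readout added after the table was seen. Of 13 members tested 2 were higher at 4-6 weeks (15.4%), against a background of 40.4% of 1063 genes, and 0 lower, against 1.88% (0 at an unadjusted p under 0.05 and 0 by DESeq2). DESeq2 called 10 of 13 higher (76.9%, background 66.1%) and a trend over weeks 12 (92.3%, background 77.9%), so whether the members' share lay below or above the background depended on the test. The median log2 change was 2.34 for members and 2.63 for all. Srsf6, an SR protein, had 4, 5, 5, 29, 45 and 84 uaRNA reads at 1w to 6w (log2 change 4.38, SE 0.59, adjusted p = 0.00369), while its mRNA did not pass the test (log2 change -0.75, SE 0.43, adjusted p = 0.187). Hnrnpd had 104, 88, 172, 264, 297 and 587 (log2 change 2.53, SE 0.55, adjusted p = 0.0125). For 12 of 13 all older libraries were above the younger ones (background 78.6%), and for 1, Srsf9 with 14, 16, 14, 4, 5 and 5 reads, all were below (background 4.05%). In some the 3w library was near the older ones, as in Hnrnpul1 with 2, 14, 181, 200, 156 and 217 reads (log2 change 2.25, SE 1.38, adjusted p = 0.183), and without 3w 12 were called (92.3%, background 82.5%). Of the U1 proteins Snrnp70 had 8 uaRNA reads in all and Snrpc 2. The uaRNA of Srsf1 overlaps annotated genes on the same strand, so its reads may belong to those. In the gene models used, some antisense pAs lay downstream of the transcription start: that of Hnrnpm (1073 nt), those of Hnrnpl (1463 and 2102 nt) and 1 of Hnrnph1 (577 nt). The Hnrnpf antisense pA with most reads lay far upstream, at -2367 nt. Whether these RNAs start at the promoters of the members was not tested.

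**Figure D5:**
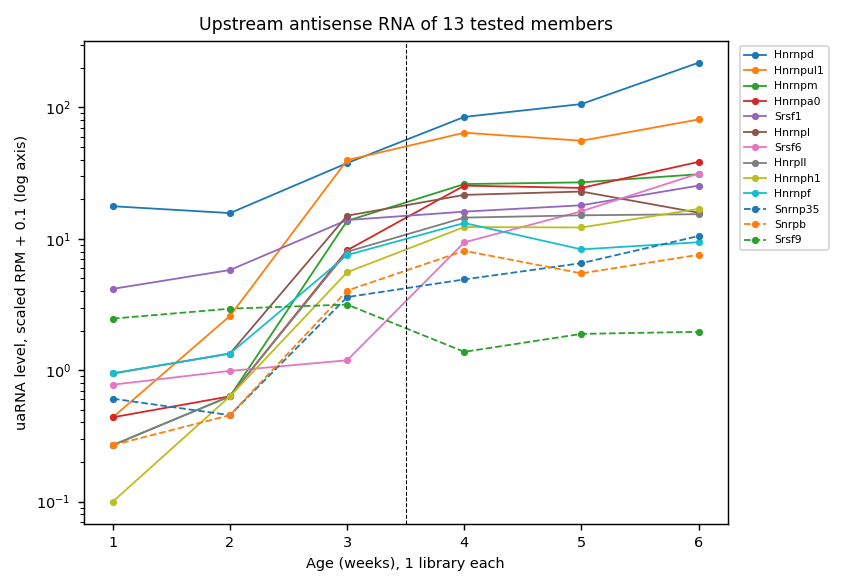
uaRNA level of the 13 tested members as scaled RPM plus 0.1 (log y axis) against age in weeks, 1 point per library. Srsf6 and Hnrnpd passed the test, and Srsf9 is the one that lies lower at 4-6 weeks than at 1-3 weeks.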

How the data were processed

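Testes of FVB mice at 6 ages were profiled by 3'READS (1 library each). The deposited table holds raw read counts per pA; the authors mapped reads with Bowtie 2 (build mm9 per the submitters' processing notes), counted reads whose unaligned T's mark a poly(A) tail and clustered nearby sites. How reads from near-identical gene copies were treated is not given in the sources used here, and members with such copies are uncertain. Entries whose pA carries several gene assignments (1053) were not used except where said. Last-exon, intronic and upstream exon counts were summed per gene and fitted with edgeR 4.0.16 in R 4.3.3 (TMM, filterByExpr, quasi-likelihood F test, 3 libraries against 3, Benjamini-Hochberg over all features, threshold 0.05). Isoform ratios had a term per library, with at least 20 reads in every library, and at least 5 CDS-pA reads per gene or 10 per single pA. Shares carry 95% Wilson intervals from SciPy 1.17.1. DESeq2 1.42.0, other scalings, filters, pA choices, a trend over weeks and each library left out were the alternatives. uaRNA, shared pAs and 1w and 2w against 5w and 6w were added after the data were seen. 3'UTR sizes, introns and sequences came from GENCODE vM1 on NCBIM37 (mm9), matched by symbol (58 of 58 members); 183 of 185 last-exon pAs got a size.

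The members and the gene lists were chosen with earlier results of these data known. Named are the U1 proteins, up to 10 members in each direction with the largest changes past the threshold (where fewer than 3 passed, the 4 with the smallest p), up to 8 called single CDS-pAs with most reads, the pA with the highest share of its gene, the member with most last-exon reads in each role, members under 20 reads, and the 2 largest called changes in each direction among other pathway genes. Genes named outside this rule are said to be so, except Srsf7, Snrnp40, Snrnp25 and Snrnp35 for level and the uaRNA genes, which were also chosen after their values were seen. Scripts were tested on simulated data. A further pathway gene is not reported here.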

Additional observations from a re-analysis of the deposited data

Results flagged for a closer look

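Some member reads lie outside the comparisons because their pAs are also assigned to other genes. The last-exon reads of Hnrnpa1, all assigned to the predicted genes Gm10052 and Gm5643 as well, came to 961 in all, with 558, 249, 87, 32, 17 and 18 at 1w to 6w. Counted for Hnrnpa1 they gave a log2 change of -2.77 (SE 0.63, edgeR adjusted p = 0.0215). Upstream antisense pAs of Hnrnpa1 with the same shared assignment held 1298 reads, with 1, 1, 16, 283, 395 and 602 at 1w to 6w. The only last-exon pA of Snrpn, an Sm protein gene, is shared with Snurf and held 214 reads, with 53, 47, 28, 19, 37 and 30 at 1w to 6w (log2 change 0.37, SE 0.37, edgeR adjusted p = 0.423). Which of the genes these reads came from was not tested.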

How the results depend on the processing

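Counts of called members moved with the setting. For levels (2 higher, 12 lower), DESeq2 gave 9 higher (background 29.4%) and a trend over weeks 5 (background 28.9%). Library totals gave 0 higher (background 9.75%) and 34 lower (background 53.6%). The fit of 1w and 2w against 5w and 6w was added after seeing the data. It gave 11 higher (21.2%, background 35.3%) and 17 lower (32.7%, background 33.1%). Leaving out 1 library gave 0 to 11 higher and 0 to 19 lower, the highest counts being without 3w and the zeros without 2w, 5w or 6w. For 3'UTR-APA (0 higher, 10 lower), the first and last pA gave 1 higher (background 1.36%). Leaving out 1 library gave 5 to 13 lower (background 24.1% to 41.7%). For CDS-APA (1 higher), DESeq2 and the trend each gave 2 (25%, background 24.1% and 26.3%). Leaving out 1 library gave 0 to 2 (background 10.3% to 29.7%). For single CDS-pAs (1 higher), the comparison with the 3'-most exon gave 0 (2 at an unadjusted p under 0.05, background 24.4%). Leaving out 1 library gave 0 to 3 (background 11.4% to 32.2%). For uaRNA (2 higher, 0 lower), DESeq2 gave 10 higher (background 66.1%) and the trend 12 (background 77.9%). Library totals gave 1 higher (7.69%, background 26.9%) and 1 lower (Srsf9, 7.69%, background 5.64%). Leaving out 1 library gave 1 to 12 higher (background 17.6% to 82.5%). With library totals the log2 changes of Snrpa1 and Snrpf were -0.25 and -0.90. That of Snrnp70 ranged from -0.30 to 0.08 with 1 library left out, above 0 without 3w or 6w. The cause of these differences was not tested. With library totals the median log2 change of all genes was -1.32. Over the single named results, 302 alternatives kept direction and call, 22 gained and 94 lost the call, and 4 turned direction. No paired analysis was possible because the labels give each week as 1 library with no shared replicate number. Low counts limit Snrpa, Hnrnph1 and all CDS-pA results.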

Other observations

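Among spliceosome genes outside the symbol rule are relatives of yeast U1 snRNP proteins, chosen for mention here after their values were seen. Luc7l had 300, 279, 93, 31, 23 and 24 last-exon reads at 1w to 6w (log2 change -2.15, SE 0.42, edgeR adjusted p = 0.0171). Luc7l2 had 503, 330, 198, 73, 45 and 49 (log2 change -1.69, SE 0.35, adjusted p = 0.019), and Luc7l3 had 931, 701, 399, 184, 136 and 92 (log2 change -1.38, SE 0.36, adjusted p = 0.0285). Prpf39 had 226, 164, 85, 40, 25 and 29 (log2 change -1.40, SE 0.35, adjusted p = 0.0265). Prpf40b, which did not pass the test, had 147, 182, 198, 118, 118 and 101 reads (log2 change 0.23, SE 0.29, adjusted p = 0.531).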
